A study of Homo sapiens with 6 samples.

Results

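Spindle microtubule-associated proteins bind microtubules or tubulin and shape the mitotic spindle without being motors. From a list of 10 such genes, 7 had a probeset with their symbol (HMMR, PRC1, CKAP2L, NUSAP1, STMN1, CKAP2 and CKAP5), among 14884 genes named in all, and ASPM, TACC3 and DLGAP5 had none in the naming table used here. The list was drawn up by gene function with earlier results of these arrays known, and where a symbol had several probesets the one brightest on average stood for the gene. Expression was measured in U87 cells, a human glioblastoma cell line, on 6 Affymetrix Human Gene 2.0 ST arrays. The 3 ZNF768 depleted samples came from cells transduced with lentiviruses to knock down ZNF768, a zinc finger transcription factor, and the 3 others were control cells. RNA of both groups was taken 96 h after infection. The series' own text names puromycin selection, while the study's general methods name puromycin or blasticidin according to the construct. The labels give neither the hairpin of the depleted cells nor the construct of the control cells. The study describes the 3 samples of each group as independent biological replicates, so that p-values rest on the spread from sample to sample. All levels are log2 values from Robust Multichip Average (RMA), which puts the arrays on a common scale. All changes are differences of mean log2 values, depleted minus control, given in log2 units with their standard error (SE). The SE of a gene's change is from limma, a test for array values that draws each variance toward a value common to all probesets. The SE of a difference between paired genes is from the arrays' own values.

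The spindle is built anew in each mitosis from microtubules that are nucleated at the poles, at chromosomes and along other microtubules. Proteins of this kind nucleate, bundle, lengthen or destabilize these microtubules, and many of them are made mostly in G2 and mitosis and degraded at mitotic exit. The mRNAs of many such genes are used as markers of dividing cells. In RNA from a whole culture, fewer dividing cells and less mRNA per cell cannot be told apart.

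ZNF768 mRNA, the targeted transcript, read 7.02, 7.14 and 7.31 in the depleted samples, against 8.49, 8.54 and 8.54 in the control samples, and fell to 38.8% of the control level (adjusted p = 0.00015, limma). The median of all probesets lay between 6.40 and 6.44 on each array. Pearson correlations across probesets were 0.994 between depleted arrays, 0.992 to 0.994 between control arrays and 0.977 to 0.980 between the groups. Of 8 measured glioma and astrocyte markers 3 fell and none rose at an adjusted p under 0.05 in limma. The other 5 did not pass. Among all genes, 16.8% fell and 16.6% rose. VIM averaged 11.05 in depleted and 11.76 in control cells (mean log2 values), and CD44 10.39 in depleted and 11.09 in control cells. VIM has 3 named probesets, and its log2 fold change was -0.94 with their mean, against -0.71 for the brightest one shown. NES, chosen after its values were seen, averaged 7.73 in depleted and 8.23 in control cells. GFAP, the defining astrocyte filament gene, and S100B were also chosen after their values were seen. GFAP averaged 7.03 in depleted and 6.83 in control cells, and S100B averaged 5.90 in depleted and 5.91 in control cells. GFAP had an adjusted p of 0.23 and S100B one of 0.905.

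All 7 measured spindle genes fell in ZNF768 depleted cells, and 6 of them fell at least 2-fold. Among all 14884 genes, 16.8% fell and 16.6% rose at an adjusted p under 0.05, and 3.37% fell at least 2-fold. That is 2501 falls and 2466 rises, against 2137 falls and 3257 rises when the arrays were centred on housekeeping genes. The falls ran from 4.23 on the log2 scale for HMMR to 0.54 for CKAP5, with a median change of -3.30, whereas the median over all named genes was 0.04. Every depleted sample lay below every control sample in all 7 genes, an ordering found in 23.5% of all genes. HMMR had the 10th largest fall of all named genes, PRC1 the 25th, CKAP2L the 27th and NUSAP1 the 28th. STMN1 stood at place 113, CKAP2 at 185 and CKAP5 at 1370. Adjusted p-values of the 7 genes were between 6.11e-06 and 0.000944 (limma).

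**Figure D1:**
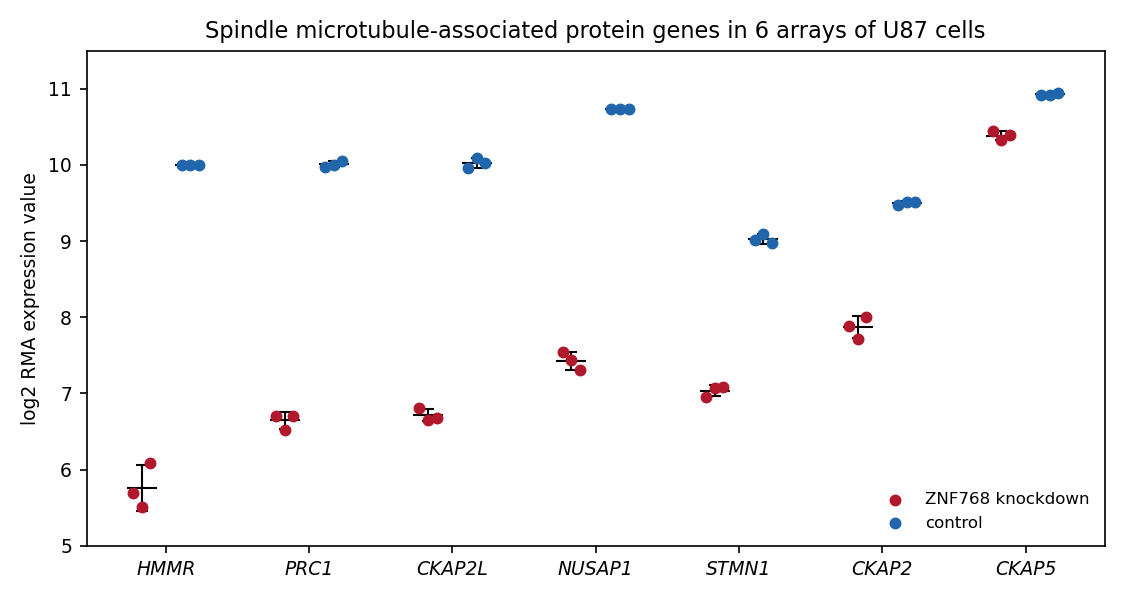
Log2 RMA expression value (y axis) of each measured spindle gene in the 3 ZNF768 depleted arrays (red, left) and the 3 control arrays (blue, right), with genes in order of their fall on the x axis. Points are single arrays in the order of replicates 1 to 3, and black bars give the mean ± SD. The groups do not overlap in any of the 7 genes, and HMMR has the widest spread among the depleted arrays, with an SD of 0.30.

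The sequences before the starts of all 7 genes are shown because the genes fell together and their promoters can be compared for letters known from cell cycle promoters. Each run is the 150 bases before an annotated start in the RefSeq table (GRCh38.p14), given 5′ to 3′ on the strand of the gene. Capitals mark TTTGAA (the core of the cell cycle homology region, bound by the DREAM and MuvB complexes), CCAAT (the NF-Y box) and TTTGGCGC or TTTCCCGC (forms of the E2F site), each read on both strands. STMN1 has 3 starts in the table and the one with most matches is shown.
HMMR (chr5:163460482-163460631, plus strand): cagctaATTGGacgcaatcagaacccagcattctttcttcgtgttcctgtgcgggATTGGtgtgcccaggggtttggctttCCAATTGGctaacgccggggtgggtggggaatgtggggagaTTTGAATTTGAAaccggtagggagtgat
PRC1 (chr15:90994536-90994685, minus strand): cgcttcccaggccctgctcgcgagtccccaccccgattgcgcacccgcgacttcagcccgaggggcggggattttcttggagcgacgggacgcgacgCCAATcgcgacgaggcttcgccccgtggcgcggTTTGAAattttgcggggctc
CKAP2L (chr2:112764610-112764759, minus strand): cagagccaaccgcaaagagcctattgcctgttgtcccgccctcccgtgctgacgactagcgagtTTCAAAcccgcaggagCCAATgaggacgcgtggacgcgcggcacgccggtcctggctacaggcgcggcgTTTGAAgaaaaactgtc
NUSAP1 (chr15:41332731-41332880, plus strand): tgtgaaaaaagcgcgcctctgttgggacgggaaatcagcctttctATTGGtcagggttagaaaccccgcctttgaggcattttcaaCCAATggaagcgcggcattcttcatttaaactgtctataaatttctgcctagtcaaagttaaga
STMN1 (chr1:25906420-25906569, minus strand): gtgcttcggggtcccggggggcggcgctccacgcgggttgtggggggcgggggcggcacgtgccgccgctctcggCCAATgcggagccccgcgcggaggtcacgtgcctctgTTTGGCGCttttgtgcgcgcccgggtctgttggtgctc
CKAP2 (chr13:52455838-52455987, plus strand): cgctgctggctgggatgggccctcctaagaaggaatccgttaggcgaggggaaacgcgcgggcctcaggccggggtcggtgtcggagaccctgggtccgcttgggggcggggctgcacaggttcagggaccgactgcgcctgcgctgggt
CKAP5 (chr11:46846281-46846430, minus strand): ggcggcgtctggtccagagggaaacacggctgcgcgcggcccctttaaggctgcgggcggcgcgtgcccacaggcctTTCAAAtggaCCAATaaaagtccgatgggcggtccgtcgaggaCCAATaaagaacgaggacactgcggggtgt

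Of the 7 genes, 4 had TTTGAA in the 250 bases before a start, as had 13.3% of 35116 promoter windows of that length. In HMMR the letters occurred 2 times next to each other, 28 and 22 bases before the start. In PRC1 they began 20 bases before it, and in CKAP2L 86 and 17 bases before it. CKAP5, whose mRNA fell least, also had a match, 73 bases before its start. NUSAP1 had none before its start, and a search beyond the window, added after the sequences were seen, found the letters at position 14 after the start in NUSAP1 and at position 18 in CKAP5. CCAAT was found in 6 genes, against 32.0% of the windows, with 5 matches in HMMR, of which the 2 nearest the start overlap. TTTGGCGC occurred in NUSAP1, 174 bases before the start, and in STMN1, 38 bases before the start shown, against 0.55% of the windows. TTTCCCGC occurred in STMN1 alone among the 7, at another of its starts, against 1.39% of the windows. CKAP2, shown without capitals, held none of the 4 motifs. The counts are of genes with a match at any of their starts, while the shares are of single windows, and STMN1 has several windows. A match describes these letters only, and binding was not measured.

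**Figure D2:**
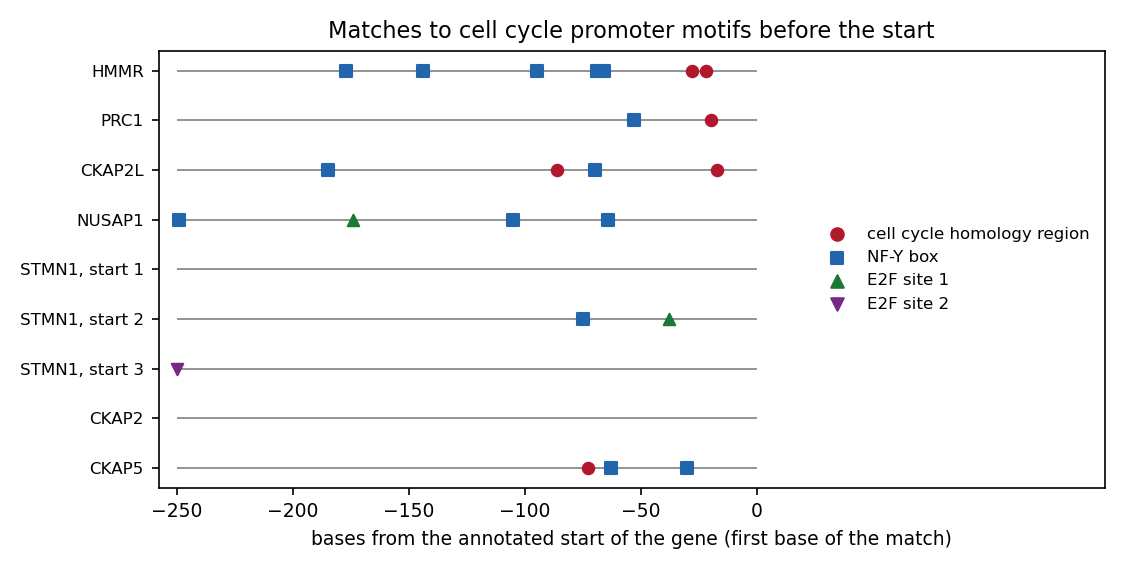
Position of each match (x axis, bases from the annotated start, at the match's first base) in the 250 bases before the start of the 7 genes, with the 3 annotated starts of STMN1 on rows of their own and genes from top to bottom in order of their fall. Red circles mark TTTGAA, blue squares CCAAT, green triangles TTTGGCGC and the violet triangle TTTCCCGC, and CKAP2 has no match.

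PRC1 and NUSAP1 bundle microtubules. PRC1 crosslinks antiparallel microtubules in the spindle midzone and is needed for cytokinesis. It read 6.71, 6.52 and 6.70 in the depleted samples, against 9.98, 10.00 and 10.05 in the control samples. The control values thus lay within a range much narrower than the gap between the groups, and PRC1 fell by 3.36 log2 units (SE 0.0715), to 9.72% of the control level. NUSAP1 binds and stabilizes spindle microtubules near chromosomes. It read 7.54, 7.44 and 7.30 in the depleted samples, against 10.73 in each control sample. Its control values were equal to every digit given, which was the case for 570 of the 53617 probesets, and the resulting SD of 0 is no measure of spread. NUSAP1 fell by 3.30 log2 units (SE 0.0732), to 10.2% of the control level.

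HMMR, CKAP2L and CKAP2 act at the poles and along the fibers of the spindle. HMMR, first described as a hyaluronan receptor, binds microtubules at the spindle poles. It read 5.69, 5.50 and 6.09 in the depleted samples, against 9.99 in each control sample after rounding, with a control SD of 0.00097. The depleted samples differed most from each other in this gene, yet all lay far below the controls, and HMMR fell by 4.23 log2 units (SE 0.146), to 5.31% of the control level. Its depleted mean was at percentile 35.5 of the probesets, against percentile 91.6 for its control mean. No background level can be given for a single probeset, so the fall is read only as far as the array measured it. Depleted means of PRC1 and CKAP2L lay at percentiles 54.4 and 55.9, so the same limit holds for these genes.

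CKAP2L and CKAP2 are paralogs that bind and stabilize spindle microtubules. CKAP2L read 6.81, 6.65 and 6.68 in the depleted samples, against 9.96, 10.09 and 10.02 in the control samples. It fell by 3.31 log2 units (SE 0.0688), to 10.1% of the control level. CKAP2 read 7.89, 7.72 and 8.01 in the depleted samples, against 9.47, 9.51 and 9.51 in the control samples, and its groups were closer than those of its paralog. It fell by 1.63 log2 units (SE 0.0836), to 32.3% of the control level. The change of CKAP2L was lower than that of CKAP2 by 1.68 log2 units (SE 0.0884 from the differences within arrays, exact permutation test p = 0.1, two-sided). This p is the smallest that 3 against 3 arrays allow, so the threshold of 0.05 could not be reached, and the p adjusted over the 2 gene pairs compared was also 0.1.

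The remaining genes set the length and turnover of microtubules. STMN1 encodes stathmin, which binds tubulin dimers and favors microtubule shrinkage. It read 6.95, 7.07 and 7.08 in the depleted samples, against 9.02, 9.10 and 8.97 in the control samples, and fell by 2.00 log2 units (SE 0.0661), to 25.1% of the control level. CKAP5, also called ch-TOG, is a microtubule polymerase that adds tubulin at plus ends and works with TACC3 and clathrin on spindle fibers. It read 10.44, 10.33 and 10.39 in the depleted samples, against 10.92, 10.92 and 10.94 in the control samples. Its groups did not overlap, and its fall was the smallest of the 7, at 0.54 log2 units (SE 0.056, adjusted p = 0.000944 in limma), to 68.6% of the control level. Without TACC3 and the clathrin genes CLTA, CLTB and CLTC, for which no probeset was named, CKAP5 could not be set beside its partners.

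In the order of changes, PRC1, CKAP2L and NUSAP1 did not differ beyond their 95% confidence intervals. PRC1 and CKAP2L differed by 0.05 and CKAP2L and NUSAP1 by 0.01 on the log2 scale. The intervals of the other neighbors did not overlap. The change of HMMR (95% confidence interval -4.59 to -3.88) was lower than that of PRC1 (-3.54 to -3.19) by 0.87, and that of NUSAP1 (-3.48 to -3.12) was lower than that of STMN1 (-2.16 to -1.84) by 1.31. STMN1 and CKAP2 (-1.83 to -1.43) differed by 0.37, and CKAP2 and CKAP5 (-0.68 to -0.41) by 1.09. This order was read from the changes themselves and carries no test. Whether low depleted levels, as in HMMR, PRC1 and CKAP2L, shortened the falls compared was not tested.

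**Figure D3:**
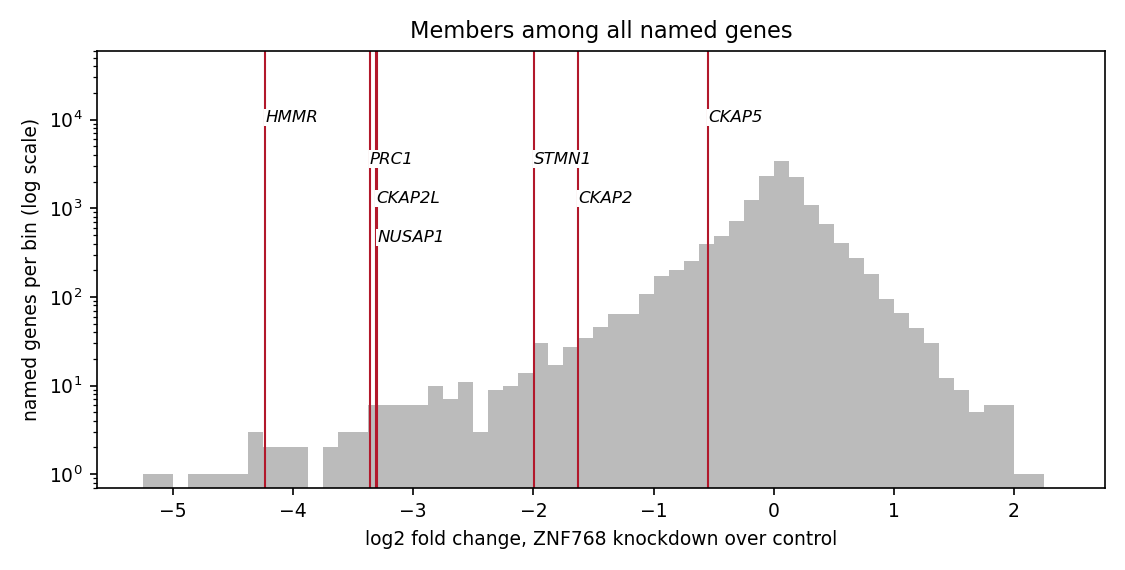
Number of named genes (y axis, log scale) by log2 fold change, ZNF768 depleted over control (x axis, bins of 0.125), for all 14884 genes, with red lines at the 7 spindle genes. HMMR, PRC1, CKAP2L and NUSAP1 lie in the far left tail, at -4.23 to -3.30, and CKAP5 at -0.54 lies within the broad left shoulder.

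The spread within groups was also read, with 3 arrays behind each SD and no test of the difference. In all 7 genes, the SD was larger among depleted than among control samples, as it was in 52.3% of all named genes. The control SDs of NUSAP1 (0) and HMMR (0.00097) come from equal or nearly equal values and are no measure of spread. Over all named genes the median SD was 0.0789 in depleted and 0.075 in control samples. The depleted SDs of the 7 genes ran from 0.0549 for CKAP5 to 0.30 for HMMR, and their control SDs from 0 for NUSAP1 to 0.065 for CKAP2L. The second depleted sample was the lowest in 5 of the 7 genes, while STMN1 was lowest in the first and NUSAP1 in the third. How often the second sample was lowest over all genes was not counted. Relative to the control means, the median change of the 7 genes was -3.19, -3.29 and -3.30 in the 3 depleted samples. ZNF768 itself was lowest in the first of them, and no relation between these orders can be read from 3 arrays.

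Genes of the central spindle fell as well. Of 8 listed genes of the central spindle and cytokinesis, which act with PRC1 at the midzone, 6 were measured. All 6 fell, 4 of them at least 2-fold, with a median change of -2.31, against 16.8% and 3.37% of all genes. KIF20A, a kinesin of the midzone, read 6.38, 6.31 and 6.40 in the depleted samples, against 10.31, 10.31 and 10.41 in the control samples, and fell by 3.98 log2 units (SE 0.0597). The depleted mean of KIF20A lay at percentile 48.5 of the probesets, so the limit named for HMMR holds here too. CEP55, which recruits the machinery of abscission, fell by 3.57 (SE 0.0982), and the smallest fall of the list was 0.45.

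Of 13 listed spindle assembly proteins, 10 were measured, 9 fell and none rose, with a median change of -0.72. Only 3 of them fell at least 2-fold. Among all genes, 16.8% fell and 3.37% fell at least 2-fold. SPAG5, which is needed for bipolar spindles, read 7.32, 7.38 and 7.43 in the depleted samples, against 9.90, 9.98 and 9.90 in the control samples, and fell by 2.55 log2 units (SE 0.0599). GTSE1, a microtubule-binding protein expressed in G2 and S phase, fell by 1.60 (SE 0.125). NUMA1, which tethers microtubules at the poles and was chosen after its values were seen, averaged 8.86 in depleted and 8.95 in control cells (adjusted p = 0.416 in limma).

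A list of plus-end and interphase microtubule proteins was read beside the spindle genes, and roles of its members in mitosis were not assessed. Of 16 measured plus-end and interphase proteins 4 fell and 4 rose, 25% in each direction against 16.8% and 16.6% of all genes, and 8 did not pass the test. In this list none fell at least 2-fold, and the median change was 0.14. The falls were led by DCTN1, a subunit of the dynein activator dynactin, with 9.09, 8.99 and 9.18 in the depleted samples, against 10.09, 10.06 and 10.00 in the control samples, and a fall of 0.96 log2 units (SE 0.0693). MAP1A, a neuronal microtubule protein, fell by 0.70 (SE 0.0759). The rises were led by EML3, a protein of the EMAP family, which was higher by 0.71 log2 units (SE 0.0729), and CLIP1, which tracks growing plus ends, with 0.68 (SE 0.0527). CLIP1 read 10.73, 10.69 and 10.70 in the depleted samples, against 9.99, 10.05 and 10.05 in the control samples.

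The other stathmins, which are best known from neurons, did not pass the test. STMN3 read 8.47, 8.88 and 8.61 in the depleted samples, against 8.19, 8.26 and 8.37 in the control samples, with a log2 fold change of 0.38 (95% confidence interval 0.10 to 0.66, adjusted p = 0.0621 in limma). STMN2 differed by 0.18 log2 units (adjusted p = 0.252) and STMN4 by 0.02 (adjusted p = 0.878), both in limma. The change of STMN1 was lower than that of STMN3 by 2.38 log2 units (SE 0.122, exact permutation test p = 0.1, two-sided, the smallest possible, and 0.1 after adjustment over the 2 pairs). None of the other paralogs listed (TACC1, TACC2 and DLGAP1 to DLGAP4) and none of 15 tubulin genes had a named probeset. Of 19 listed genes of augmin and the γ-tubulin complex only MZT1, a small subunit of the γ-tubulin complex that is named here for that reason after its values were seen, was measured, at 0.18 log2 units above control (adjusted p = 0.0722 in limma).

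**Figure D4:**
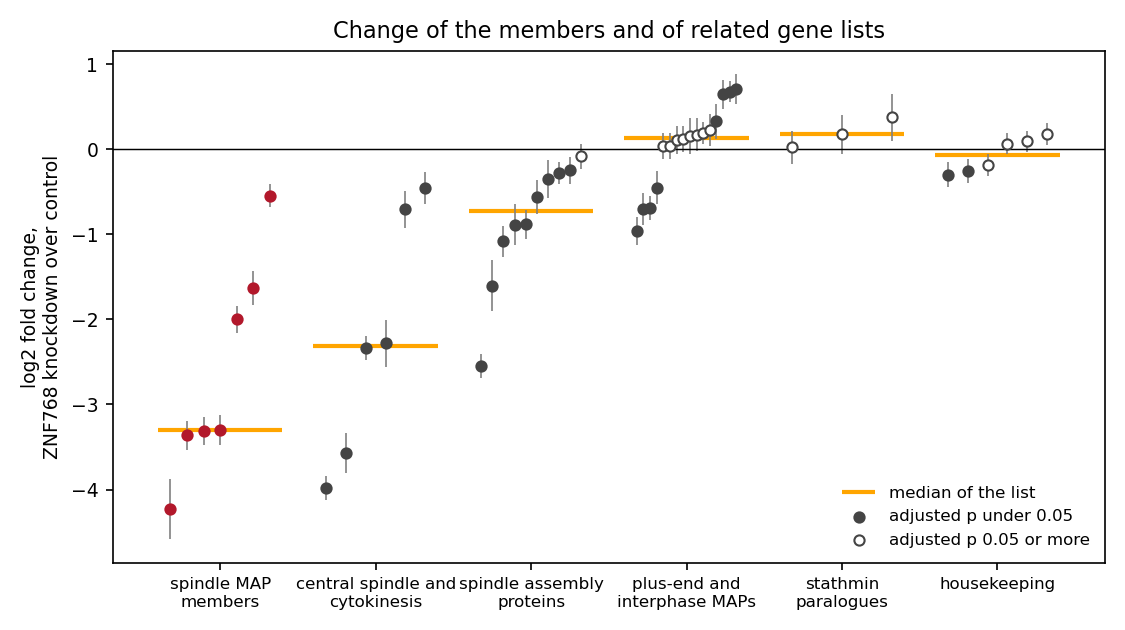
Log2 fold change, ZNF768 depleted over control (y axis), of each measured gene of the spindle list (red) and of related lists (x axis), with 95% confidence intervals in grey and the median of each list as an orange bar. Filled points passed an adjusted p of 0.05 in limma and open points did not. The medians are -3.30 for the spindle genes, -2.31 for central spindle and cytokinesis, -0.72 for spindle assembly, 0.14 for plus-end and interphase proteins, 0.18 for the stathmin paralogs and -0.06 for housekeeping genes.

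Housekeeping genes and markers of other cell types were read beside these falls. Among all genes, 16.8% fell and 16.6% rose. Of 6 measured housekeeping genes 2 fell and none rose, with PPIA at a log2 fold change of -0.30 and TBP at -0.25, calls that were lost when single arrays were left out. Of 4 measured myeloid markers 2 fell, CD68, also a lysosomal gene, by 3.11 and CSF1R by 0.50 on the log2 scale, a call for CSF1R that was lost when single arrays were left out. The other measured markers, CD14 and TYROBP, had log2 fold changes of 0.20 (adjusted p = 0.253) and 0.04 (adjusted p = 0.833, both in limma). The mean level of the 4 was 7.49 to 7.65 in depleted and 8.35 to 8.47 in control samples, and CD68 alone, at 9.62 in depleted and 12.73 in control cells, fell at least 2-fold. Of 3 measured fibroblast markers LUM fell by 1.23 and DCN by 1.07 on the log2 scale, while THY1 averaged 0.15 log2 units above control (adjusted p = 0.395 in limma), and the mean level of the 3 was 6.98 to 7.09 in depleted and 7.65 to 7.85 in control samples. CD14, TYROBP and THY1 were named after their values were seen. No value is 0 on this scale, so absence of a marker cannot be read from it. All samples were of the U87 line, so these values are levels in that culture and no measure of a share of other cell types. Their relation to the falls of the spindle genes was not tested.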

How the data were processed

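Expression was measured on 6 Affymetrix Human Gene 2.0 ST arrays, 3 of ZNF768 depleted and 3 of control U87 cells. The authors extracted log2 expression values per probeset by Robust Multichip Average in the oligo package, with background correction, normalization between arrays and a summary of probes. Versions of these tools and any filter are not given in the sources used here. The deposited log2 values of 53617 probesets were used as they stand. Gene symbols came from the platform's table and were checked through Entrez identifiers (16098 of 16098 matched): 16098 probesets carried 1 symbol, none several, and 37519 are unnamed here. Each of the 7 measured spindle genes had 1 named probeset.

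The groups were compared with limma 3.58.1 in R 4.3.3 (lmFit and eBayes, default settings), fitted to every probeset together with group as the only term, and p-values were adjusted by Benjamini-Hochberg over the whole table, with 0.05 as the threshold. Pairs of genes were compared by an exact permutation test of their difference within arrays. Of 4 pairs planned, 2 with TACC3 had no probeset. Named were ZNF768, the spindle genes, their measured paralogs and, for each other list, up to 2 rises and 2 falls past the test, the largest without overlap between groups. NES, GFAP, S100B, NUMA1, MZT1, CD14, TYROBP and THY1 were named outside this rule, after their values were seen. The spindle genes, lists, motifs and tests were chosen with earlier results of these data known. The procedure was tested on simulated data of the same size. Alternatives were cyclic loess, centring on housekeeping genes, a filter on dim probesets, named probesets only, a gene's probesets averaged, a trended and robust variance prior, weights for arrays, a replicate block, each array left out in turn, an adjusted p of 0.01 and a fold of 1.5. Promoter windows of all 7 genes came from RefSeq (9 windows, GRCh38.p14), which gives 250 bases before and 50 after each start, and the 250 before it were searched. The number of arrays limits the precision.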

Additional observations from a re-analysis of the deposited data

How the results depend on the processing

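All 7 spindle genes fell past the test, and 6 fell at least 2-fold, under every alternative fit. At an adjusted p of 0.01 the count stayed at 7, and at a fold of 1.5 it stayed at 6. The highest adjusted p among them was 7.89e-05 to 0.0107 over the alternative fits. The median change was -3.24 when arrays were centred on housekeeping genes, and -3.36 to -3.24 when an array was left out, the smallest size without the third depleted sample. With the replicate number as a block the median was -3.30 and 7 genes fell. Deviations of arrays with the same number correlated at -0.07 to 0.02. Of the 6 arrays 1 correlated best with the array of its own number in the other group. Whether samples with the same number came from the same experiment was not tested, and 3 arrays per group are too few for these values to show it. Under the block 2029 genes fell and 1865 rose, against 2501 and 2466 without it. Centred on housekeeping genes, 2137 genes fell and 3257 rose, with the median over all genes at 0.11 instead of 0.04. Of the 6 housekeeping genes used for this centring, 2 (PPIA and TBP) fell in the reported fit. Of the stathmin paralogs none rose in the reported fit, and 1 rose (STMN3) when arrays were centred on housekeeping genes, with trend and robust settings, with named probesets only and without dim probesets, and 0 to 1 when an array was left out, the 1 without the first depleted sample. Between 6 and 9 of the spindle assembly genes and 5 to 6 of the central spindle genes fell over all alternatives. The 5 came from the filter on dim probesets, which left a central spindle gene out of the fit, and all the rest fell. Among plus-end and interphase proteins 4 fell and 3 to 6 rose. TBP lost its call without any array but the third depleted one (-0.26 to -0.22), PPIA without depleted sample 1, control sample 1 or control sample 3 (-0.28 to -0.26) and CSF1R without the third depleted or any control sample (-0.56 to -0.46). All 3 also lost it with the block, and TBP and CSF1R when centred on housekeeping genes, and the cause was not tested. TBP is itself among the genes used for that centring, so the centring is no separate check of it. No background level is known for a probeset, which limits how far low values such as those of HMMR, PRC1 and CKAP2L can be read.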
